A study of Mus musculus with 12 samples.

Results

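The malate-aspartate and glycerol phosphate shuttles are described here through 8 genes, chosen by name: the carriers Slc25a11, Slc25a12 and Slc25a13, the malate dehydrogenase Mdh1, the transaminases Got1 and Got2, and the glycerol 3-phosphate dehydrogenases Gpd1 and Gpd2. All 8 are among the 18929 gene rows of the table, and 7 of them passed the filter on low values and were tested; Gpd1 did not. The RNA came from T cells of C57BL/6 mice cultured for 5 days under T helper 1 (Th1) polarising conditions and then sorted. The tested libraries were 3 labelled Sdhc cKO, a conditional knockout of the gene for subunit C of complex II, the succinate dehydrogenase, and they were set against 3 wild-type control libraries. The promoter or line that drives the deletion, the age of the mice and whether cells of several mice were pooled are not given in the labels. The series has 12 samples in 5 groups; the 6 samples of the other groups, which include knockouts of Slc25a1 and of Slc25a11, were not analysed here.

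Both shuttles carry the electrons of cytosolic NADH, made mainly in glycolysis, to the mitochondrial respiratory chain, since the inner membrane does not let NADH itself pass. In the malate-aspartate shuttle, cytosolic malate dehydrogenase reduces oxaloacetate to malate, the malate enters in exchange for 2-oxoglutarate, and oxaloacetate formed in the matrix is transaminated to aspartate, which leaves in exchange for glutamate. In the glycerol phosphate shuttle, a cytosolic dehydrogenase makes glycerol 3-phosphate and a dehydrogenase on the outer face of the inner membrane oxidises it and hands the electrons to ubiquinone, the same acceptor that complex II uses. Activated T cells run glycolysis fast, and the aspartate that the first shuttle exports also feeds nucleotide synthesis.

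Values are given as normalised counts, which are a gene's reads after division by the size factor of its library; the libraries held 18144933 to 21983821 counted reads. The targeted gene Sdhc had 1452, 1562 and 1655 normalised counts in the cKO libraries, against 1683, 1603 and 1892 in the controls. The groups overlap, and counts per gene cannot show the loss of part of a gene, so they do not check the labels. T cell markers were abundant in all libraries (sums of 7 genes from 54989 to 63971 in cKO, against 55000 to 58396 in control), as were the 6 Th1 markers (14261 to 14779 in cKO, against 14009 to 16418 in control). Of these, Ifng had 858 to 880 normalised counts in cKO, against 1342 to 1461 in control, and Tbx21 1454 ± 72.1, against 1794 ± 154. For both, every cKO library was below every control, as for 5.64% of all tested genes. The groups overlapped for the other Th1 markers. Their cKO means were 103% of control for Il12rb2, 103% for Stat4, 96.1% for Il18r1 and 88.8% for Cxcr3. Markers of other cells were low, and none of those in the table was at 0 in all 6 libraries. The 5 NK cell markers summed to 106 to 281 normalised counts in cKO, against 159 to 371 in control, the 4 B cell markers in the table to 39.8 to 76.3, against 46.3 to 64.7, and the 5 myeloid markers to 94.0 to 188, against 103 to 140. The 2 CD8 markers summed to 235 to 547 in cKO, against 278 to 368 in control, and the 3 erythroid markers in the table to 33.1 to 53.8, against 13.0 to 112. The libraries differed in sex-linked transcripts: of each library's reads, 4 Y-linked genes took 0.207, 193 and 189 RPM, a rate that corrects for sequencing depth, in cKO 1, 2 and 3, against 0.048, 131 and 55.1 RPM in control 1, 2 and 3. On the first principal component (49.1% of the variance) cKO 1 and control 1 stood apart from the other 4 libraries. In such bulk samples, fewer cells of a type and less RNA per cell cannot be told apart.

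Per kilobase of exon, the shuttle genes spanned a wide range of levels. Mdh1, the cytosolic malate dehydrogenase, was highest, with a mean level of 1502 ± 20.2 normalised counts per kb in cKO and 1523 ± 129 in control (SD, n = 3 each). Slc25a11, the carrier that exchanges 2-oxoglutarate for malate, followed at 739 ± 103 per kb in cKO and 740 ± 12.6 in control. The mitochondrial transaminase gene Got2 had a level of 646 ± 93.5 per kb in cKO and 736 ± 69.3 in control, and the cytosolic transaminase gene Got1 648 ± 86.4 and 646 ± 43.2. Over the 6 libraries the levels of these 3 genes overlap, so their order is not resolved, and per kilobase of coding sequence Got2 stood above Slc25a11. Slc25a12, an aspartate-glutamate carrier, came next at 200 ± 3.78 per kb in cKO and 220 ± 8.51 in control. Gpd2, the mitochondrial glycerol 3-phosphate dehydrogenase, and Slc25a13, the other aspartate-glutamate carrier, lay below it: Gpd2 had 48.4 ± 11.4 per kb in cKO and 50.5 ± 6.83 in control, and Slc25a13 37.8 ± 10.2 and 53.2 ± 8.67. These 2 genes overlapped each other as well. Gpd1, the cytosolic glycerol 3-phosphate dehydrogenase, was at the floor.

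**Figure D1:**
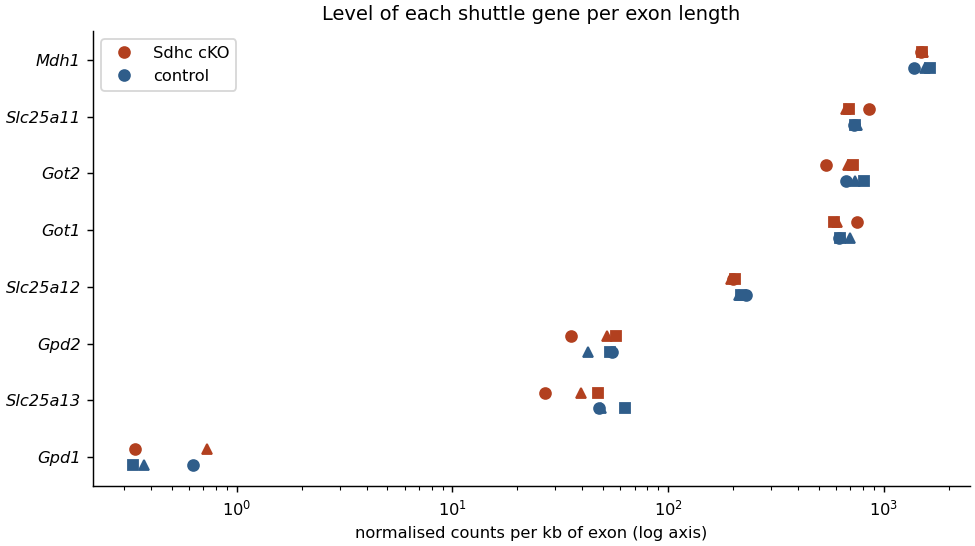
Levels of the 8 shuttle genes per kilobase of exon in each library, on a log axis, with Sdhc cKO (red) above control (blue) and the replicate number given by the symbol (circle 1, square 2, triangle 3); Gpd1 in cKO 2 was 0 and is not drawn. Mdh1 lies highest at 1381 to 1633 normalised counts per kb, and Slc25a13 and Gpd2 lie between 27.0 and 63.2, with Gpd1 far below them.

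No shuttle gene passed the test of cKO against control on genotype alone. With limma on log2(value + 1) and Benjamini-Hochberg adjustment at 0.05, 0 of the 7 tested members were called, and 0 of all 12699 tested genes (0%). At an unadjusted p under 0.05 there were 0 members and 445 genes (3.5%). edgeR on recovered reads also called 0 genes, and 455 genes (3.58%) had an unadjusted p under 0.05 there. By DESeq2 the count was 2 genes (0.0157%), and limma with the replicate number as a block or with array weights called 1 gene each (0.00787%); 0 of them were members. The fold change was negative for all 7 tested members (median -0.08), beside 6870 negative of 12699 and a median of -0.01 over all tested genes. For Got1 (-0.000568), Slc25a11 (-0.01) and Mdh1 (-0.02) it was near that median or above it. The signs of these genes turned with upper-quartile scaling, so the count of negative values does not show a uniform lowering. The aspartate-glutamate carriers were the members whose groups did not overlap: every cKO library was below every control for 2 members, as for 5.64% of all tested genes, and every cKO library was above for 0 members, as for 4.51% of all tested genes. Lower values in cKO in each of the 3 pairs of same-numbered libraries were seen for 3 members, Slc25a12, Slc25a13 and Got2, and for 21.8% of all tested genes.

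**Figure D2:**
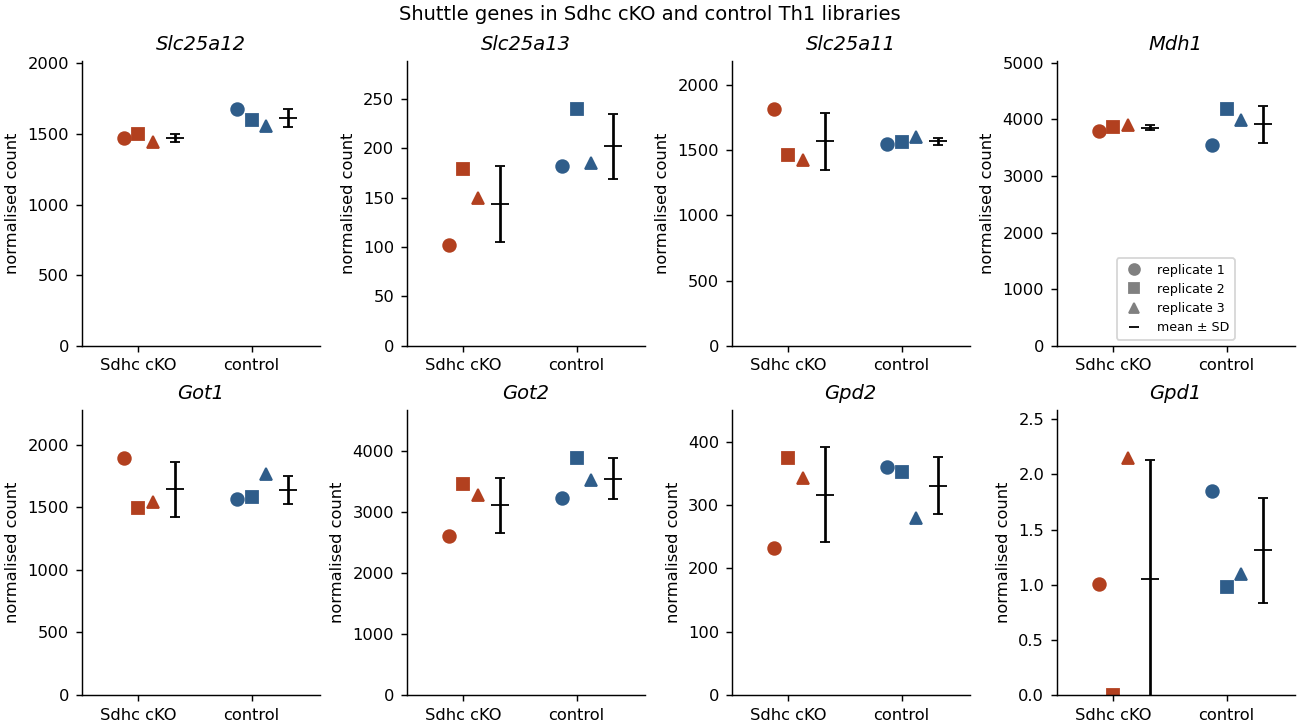
Normalised counts of the 8 shuttle genes in the 3 Sdhc cKO libraries (red, left) and the 3 control libraries (blue, right), with each replicate number as a symbol and the mean ± SD in black; each panel has its own axis from 0. The cKO points lie below all control points for Slc25a12 (at most 1498, against at least 1556) and Slc25a13 (at most 179, against at least 182), and the groups overlap in the other panels.

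Slc25a12 (aralar) and Slc25a13 (citrin) encode calcium-regulated carriers that export aspartate from the matrix in exchange for glutamate, the step of the malate-aspartate shuttle that the membrane potential drives one way. Citrin is the main form in liver and aralar in brain and muscle. Slc25a12 lies on chromosome 2 (71271063 to 71367749, minus strand, GRCm38) and Slc25a13 on chromosome 6 (6041218 to 6217173, minus strand). The longest stretch that transcripts of the 2 genes share is 21 bases.

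The 250 bases before the RefSeq transcription start of each carrier gene (GRCm38.p6, 5′ to 3′ on the minus strand) are shown because these were the members whose groups did not overlap, and capitals mark the motifs found.
Slc25a12 (chr2:71367756-71368005): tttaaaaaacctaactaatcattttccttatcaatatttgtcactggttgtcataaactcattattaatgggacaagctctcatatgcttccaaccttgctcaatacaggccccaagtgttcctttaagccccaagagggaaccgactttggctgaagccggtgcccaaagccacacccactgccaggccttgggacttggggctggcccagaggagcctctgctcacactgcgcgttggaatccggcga
Slc25a13 (chr6:6217174-6217423): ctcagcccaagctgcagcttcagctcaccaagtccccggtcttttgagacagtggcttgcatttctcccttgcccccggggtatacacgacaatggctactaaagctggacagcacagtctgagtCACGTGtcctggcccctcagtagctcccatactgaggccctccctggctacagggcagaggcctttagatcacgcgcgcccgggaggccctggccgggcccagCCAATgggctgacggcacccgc
Both strands were searched for the CCAAT box, the GC box GGGCGG, the ETS-type motif CCGGAAG, the E-box CACGTG and the TATA-type motif TATAAA. The Slc25a13 window held the E-box, with its first base 125 bases before the start, and the CCAAT box, 22 bases before the start. Over the 32851 windows of the same length in the table, 6.02% held the E-box and 33.8% the CCAAT box. The Slc25a12 window held none of the 5 motifs; the other shares were 32.7% for the GC box, 6.91% for the ETS-type motif and 12.4% for the TATA-type motif. The GC content was 49.6% for Slc25a12 and 62.8% for Slc25a13, beside a median of 52.4% over all windows. Of the other members with a window in the table, Got1 held 5 matches to the CCAAT box, Mdh1 held 2 and Slc25a11 held 1. Slc25a11, Mdh1 and 1 window of Gpd2 each held 1 match to the GC box, and Got2 held 1 to the TATA-type motif.

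Slc25a12 had normalised counts of 1469, 1498 and 1442 in the cKO libraries, against 1680, 1603 and 1556 in the controls. All 3 cKO values were below all 3 control values, by a small margin. The means were 1470 ± 27.8 in cKO and 1613 ± 62.5 in control (SD, n = 3 each), 91.1% of control. The log2 fold change was -0.13 (SE 0.07, 95% interval -0.29 to 0.03) and did not pass (limma adjusted p = 0.978). The 2-sided exact permutation p was 0.1, the smallest that 3 against 3 allows.

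Slc25a13 had 102, 179 and 150 normalised counts in the cKO libraries, against 182, 240 and 185 in the controls. These rest on 102 to 245 reads per library. The groups do not overlap, but cKO 2 was only just below control 1, and the spread within each group is wide. The mean was 144 ± 38.6 in cKO and 202 ± 32.9 in control (SD, n = 3 each), which is 71.1% of control. The log2 fold change of -0.51 (SE 0.22, 95% interval -1.03 to 0.00168) did not pass on genotype alone (limma adjusted p = 0.978, unadjusted p = 0.0506; 2-sided exact permutation p = 0.1, the smallest possible). Between same-numbered libraries, cKO minus control differed by -0.82, -0.42 and -0.30 on the log2 scale in pairs 1, 2 and 3. With the replicate number as a block the gene still did not pass (limma adjusted p = 0.269, unadjusted p = 0.00406, 95% interval -0.82 to -0.21). In that fit 12.6% of all tested genes had an unadjusted p under 0.05. With the Y-linked share of each library as a covariate Slc25a13 passed, with a log2 difference of cKO minus control of -0.74 (SE 0.13, limma adjusted p = 0.0169). This share was itself uneven between the groups: 0.207, 193 and 189 RPM in cKO, against 0.048, 131 and 55.1 RPM in control. The covariate fit therefore cannot separate genotype from whatever else varied with the share. That fit called 826 of the 12699 tested genes (6.5%), 617 of them lower in cKO (4.86%), and 2 of the 7 tested members, both lower. Without cKO 1, the lowest library, the log2 fold change on genotype alone shrank to -0.29.

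Per kilobase of exon, Slc25a12 stood over Slc25a13 by a factor of 7.42, 4.33 and 4.99 in cKO, against 4.79, 3.45 and 4.36 in control. The share of Slc25a13 in the summed level of both carriers per kb was 15.8 ± 3.54% in cKO and 19.5 ± 2.68% in control (SD, n = 3 each), and the groups overlap. The factor and the share depend on the length used. Per kilobase of coding sequence the means over all libraries were 759 for Slc25a12 and 85.3 for Slc25a13. The normalised counts of both genes together were 1572, 1677 and 1592 in cKO, against 1862, 1843 and 1741 in control. No test was made of these combined values.

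Slc25a11, the 2-oxoglutarate-malate carrier, is the gene knocked out in another group of the series (chromosome 11, 70644196 to 70647479, minus strand). It had 1819, 1460 and 1422 normalised counts in the cKO libraries, against 1548, 1561 and 1599 in the controls. cKO 1 was above all controls and cKO 2 and cKO 3 below all of them. The means were 1567 ± 219 in cKO and 1569 ± 26.8 in control (SD, n = 3 each), and the log2 fold change was -0.01 (SE 0.10, 95% interval -0.25 to 0.23; limma adjusted p = 0.997). Without cKO 1 it was -0.12. The sign of so small a difference turned with the upper-quartile scaling, with edgeR, with DESeq2 and with the Y-linked share. Exons of Slc25a11 share 189 of their 2120 bases with Rnf167, a ubiquitin ligase gene on the other strand, and the strand setting of the counting is not given. Rnf167 had 1155, 792 and 894 normalised counts in cKO, against 738, 690 and 759 in control. Like Slc25a11, it was highest in cKO 1. In cKO 2 and cKO 3 it was above all controls, where Slc25a11 was below all of them. The part of Rnf167 in the Slc25a11 values was not tested.

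Mdh1, which makes malate in the cytosol and oxidises NADH in doing so, was the most even member in cKO (chromosome 11, 21556787 to 21572367, minus strand). Its normalised counts were 3800, 3863 and 3903 in the cKO libraries, against 3545, 4191 and 3996 in the controls. The control values enclose all 3 cKO values. The means of 3856 ± 51.9 in cKO and 3911 ± 331 in control (SD, n = 3 each) differed by -0.02 on the log2 scale (SE 0.08, 95% interval -0.20 to 0.17; limma adjusted p = 0.992), whose sign turned with the upper-quartile scaling.

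The transaminases, which interconvert aspartate and oxaloacetate on the 2 sides of the membrane, differed in pattern. Got1, the cytosolic enzyme (chromosome 19, 43499752 to 43524605, minus strand), had 1897, 1497 and 1542 normalised counts in cKO, against 1568, 1584 and 1765 in control. Its highest value was in cKO 1 and its lowest in cKO 2, and the groups overlap. The log2 fold change was -0.000568 (SE 0.11, 95% interval -0.25 to 0.25; limma adjusted p = 0.9997); its sign turned with each of the 3 other scalings, both count tests and the Y-linked share, and without cKO 1 it was -0.11.

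Got2, the mitochondrial enzyme that makes the exported aspartate (chromosome 8, 95864134 to 95888547, minus strand), had 2606, 3462 and 3282 normalised counts in cKO, against 3228, 3895 and 3531 in control. The lowest value was in cKO 1 and the highest in control 2; the groups overlap, and each cKO library was below the control of its number. The means were 3117 ± 451 in cKO and 3551 ± 334 in control (SD, n = 3 each), 87.8% of control. The log2 fold change of -0.19 (SE 0.12, 95% interval -0.48 to 0.09) did not pass (limma adjusted p = 0.978; 2-sided exact permutation p = 0.3). With the replicate block it did not pass either (limma adjusted p = 0.312, unadjusted p = 0.0119, 95% interval -0.33 to -0.05). There 12.6% of all tested genes had an unadjusted p under 0.05. With the Y-linked share as a covariate Got2 passed, with a log2 difference of cKO minus control of -0.32 (SE 0.06, limma adjusted p = 0.0168). The limit given for Slc25a13, that this share was uneven between the groups, holds here too. Without cKO 1 the value on genotype alone was -0.07 and without control 2 it was -0.13. The ratio of Got2 to Got1 per kb of exon was 0.723, 1.22 and 1.12 in cKO, against 1.08, 1.29 and 1.05 in control, with the low value in cKO 1. Its size depends on the length used. Per kilobase of coding sequence the means over all libraries were 2584 for Got2 and 1325 for Got1.

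**Figure D3:**
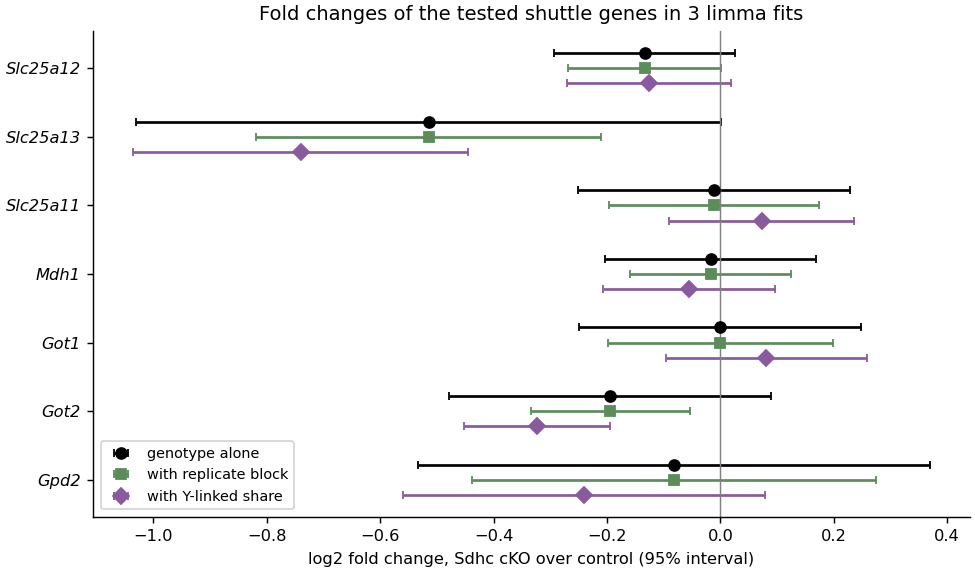
Log2 fold changes of Sdhc cKO over control for the 7 tested shuttle genes, with 95% intervals, from limma with genotype alone (black circles), with the replicate number as a block (green squares) and with the Y-linked share of the library as a covariate (purple diamonds). Slc25a13 lies lowest in all 3 fits, at -0.51, -0.51 and -0.74, followed by Got2 at -0.19, -0.19 and -0.32.

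Of the glycerol phosphate shuttle, the mitochondrial enzyme gene Gpd2 was measured well above the floor and the cytosolic one, Gpd1, was not. Gpd1, which makes glycerol 3-phosphate in the cytosol (chromosome 15, 99717515 to 99725005, plus strand), had 1, 0 and 2 reads in the cKO libraries, against 2, 1 and 1 in the controls. With so few reads Gpd1 did not pass the filter on low values, so no fold change is given. Gpd1l, the gene of a related cytosolic enzyme, had 1076, 992 and 1147 normalised counts in cKO, against 1150, 1123 and 1179 in control. Its groups overlap, although each cKO library was below the control of its number (log2 fold change -0.10, SE 0.08; limma adjusted p = 0.978). Transcripts of Gpd1 and Gpd1l share no identical stretch longer than 20 bases.

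Gpd2, which oxidises glycerol 3-phosphate and reduces ubiquinone (chromosome 2, 57237635 to 57370719, plus strand), had 233, 375 and 342 normalised counts in cKO, against 360, 353 and 279 in control. cKO 1 was the lowest library and cKO 2 the highest, and the groups overlap. The means were 317 ± 74.4 in cKO and 331 ± 44.7 in control (SD, n = 3 each). The log2 fold change was -0.08 (SE 0.19, 95% interval -0.53 to 0.37; limma adjusted p = 0.987). It was 0.12 without cKO 1 and -0.20 without control 3, and cKO 1 was the one library whose removal turned its direction.

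cKO 1 held the extreme value of most tested members. It was the lowest library for Slc25a13, Got2 and Gpd2, with deviations of -0.70, -0.34 and -0.45 from the gene mean on the log2 scale. It was the highest library for Slc25a11 and Got1, with deviations of 0.22 and 0.21. Control 2 was the highest library for 3 members, Slc25a13, Mdh1 and Got2. Control 1, which like cKO 1 had almost no Y-linked reads, deviated by 0.12 at Slc25a13, -0.04 at Got2 and 0.17 at Gpd2. Among the controls it was the lowest at Slc25a13 (182 normalised counts, against 240 and 185) and at Got2 (3228, against 3895 and 3531). At Gpd2 it was the highest control (360, against 353 and 279). The part of these differences between libraries in the fold changes was tested only through the fits with the block, with the covariate and without each library.

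**Figure D4:**
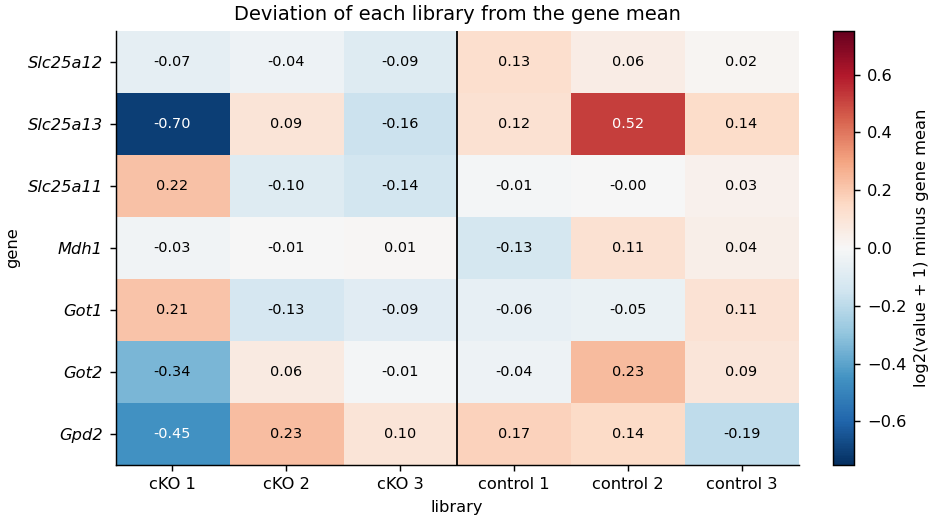
Deviation of each library from the gene's mean over the 6 libraries, on the log2(value + 1) scale, for the 7 tested shuttle genes (rows) in the cKO libraries (left of the line) and the controls (right); red is above and blue below the mean. cKO 1 holds the most negative value, -0.70 at Slc25a13, and control 2 the most positive, 0.52 at the same gene.

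The reads on all 8 members together made up 616, 621 and 619 RPM in the cKO libraries, against 628, 680 and 642 in the controls. The cKO libraries were thus nearly equal in this sum, by opposite deviations of its members, and no test was made of it.

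The genes beside the shuttles were read as 4 lists, and none of their genes passed on genotype alone in either direction. Of 9 tested shuttle partners and cytosolic NADH enzymes (10 listed), 0 passed; 8 fold changes were negative, with -0.10 as the median. Mdh2, the mitochondrial malate dehydrogenase that reoxidises malate in the matrix, had 5039, 4885 and 4915 normalised counts in cKO, against 5221, 4931 and 5316 in control. Its groups were close, with a log2 fold change of -0.06 (SE 0.07). Gapdh, the glycolytic step that makes cytosolic NADH, had 17786, 37786 and 30921 in cKO, against 22417, 39836 and 33584 in control. Ldha, the lactate dehydrogenase that reoxidises it without a shuttle, had 13449, 32201 and 25690 in cKO, against 16960, 33587 and 28445 in control. Both genes were lowest in cKO 1 and control 1, the libraries with almost no Y-linked reads, and were lower in cKO in all 3 pairs (log2 fold changes -0.18, SE 0.30, and -0.18, SE 0.35). For Me2, a mitochondrial malic enzyme, the log2 fold change was -0.21 (SE 0.10). With the Y-linked share as a covariate 3 genes of this list passed, all lower in cKO: Gapdh (-0.52), Ldha (-0.58) and Me2 (-0.31), where 4.86% of all tested genes passed lower.

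All 14 genes listed for aspartate, glutamate and malate handling were tested and 0 passed. Of their fold changes 11 were negative, with -0.13 as the median. Ucp2, which can carry aspartate and malate out of mitochondria, averaged 9988 ± 1337 normalised counts in cKO and 10993 ± 485 in control, a log2 fold change of -0.15 (SE 0.11). Glud1, glutamate dehydrogenase, averaged 6329 ± 561 in cKO and 6294 ± 316 in control (log2 fold change 0.01, SE 0.09). With the covariate 5 genes of the list passed, all lower in cKO, where 4.86% of all tested genes passed lower. They were Ucp2 (-0.25), the asparagine synthetase gene Asns (-0.65), the adenylosuccinate lyase gene Adsl (-0.42), the pyrimidine synthesis gene Cad (-0.45) and the pyruvate carboxylase gene Pcx (-0.69). On genotype alone the log2 fold changes of Asns, Adsl and Cad were -0.40 (SE 0.23), -0.28 (SE 0.13) and -0.27 (SE 0.17). The aspartate-using genes Ass1, of argininosuccinate synthesis, and Adss, of adenylosuccinate synthesis, did not pass with the covariate (limma adjusted p = 0.115 and 0.155).

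The list of glycerol 3-phosphate use held 12 genes, among them genes of later steps of lipid synthesis such as Agpat3 and Lpin1. These 12 were balanced, with 6 negative fold changes and a median of -0.01. On genotype alone 0 passed, and with the covariate 0. Agpat3, an acyltransferase of phospholipid synthesis, averaged 6405 ± 239 normalised counts in cKO and 6601 ± 624 in control, and Lpin1, a phosphatidate phosphatase, 2659 ± 411 and 2596 ± 62.0. Of 8 tested genes that feed electrons to ubiquinone beside Gpd2 (9 listed, Choldh not matched in the table), 0 passed; 7 fold changes were negative, with -0.10 as the median. The complex II genes were the most abundant: Sdha averaged 5531 ± 181 in cKO and 5760 ± 128 in control, and Sdhb 2364 ± 148 and 2581 ± 189. Sdhd, the gene of the complex II subunit that anchors it with SDHC, had 1308, 1525 and 1530 in cKO, against 1587, 1744 and 1664 in control (log2 fold change -0.20, SE 0.09). Every cKO library was below every control, as for 5.64% of all tested genes. Sdhd passed with the covariate (-0.27), where 4.86% of all tested genes passed lower. For Dhodh, which links pyrimidine synthesis to ubiquinone, the log2 fold change was -0.08 (SE 0.26), and for Sqor, sulfide quinone oxidoreductase, it was 0.22 (SE 0.19).

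**Figure D5:**
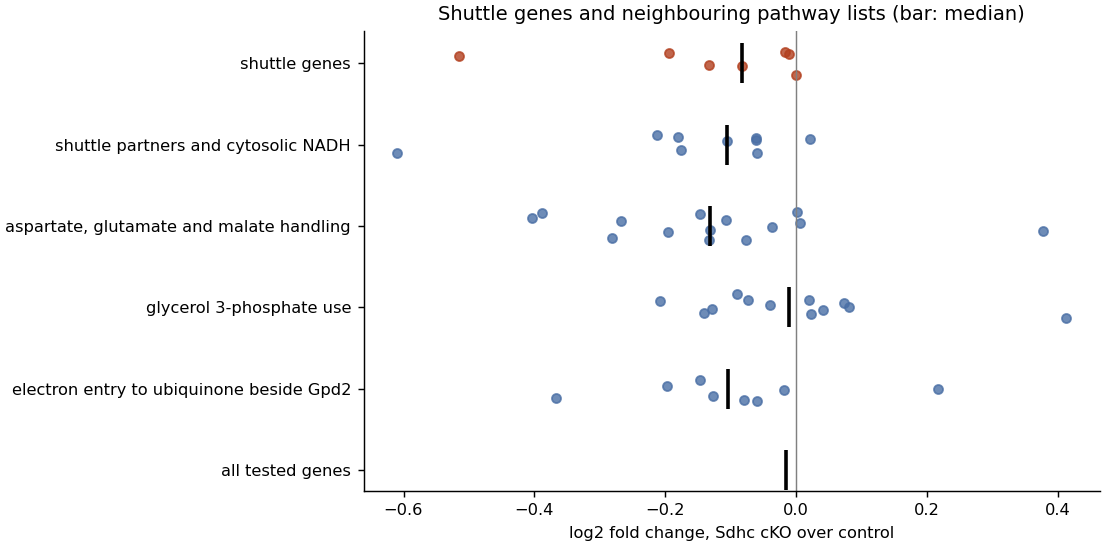
Log2 fold changes of Sdhc cKO over control on genotype alone for each tested gene of the shuttle list (red) and of the 4 neighbouring lists (blue), with the median of each list and of all 12699 tested genes as a black bar. The medians run from -0.13 for aspartate, glutamate and malate handling to -0.01 for glycerol 3-phosphate use and for all tested genes.

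The genes whose values ran most like those of a member over the 6 libraries were found by the root mean square difference of mean-centred log2 values, among 10292 genes whose mean was 50 normalised counts or more. For Slc25a13 these were Slc43a3 and Irf4, both at a difference of 0.08 where Slc25a13 itself deviated from its mean by 0.37. Irf4 encodes a transcription factor induced by T cell receptor signals. For Got2 they were Homer1 (0.02) and Pebp1 (0.02), against its own deviation of 0.18, and for Gpd2 Csf2ra (0.06) and Ptpn21 (0.06), against 0.24. For Slc25a12 they were Serp1 (0.01) and Tbc1d22b (0.02), against 0.08. For Mdh1 they were Tex30 (0.02) and Stard3 (0.03), against 0.07, and for Got1 Ppp1r37 (0.03) and 2010107E04Rik (0.03), against 0.12. With 6 libraries and this many genes, close matches can be found for most patterns.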

How the data were processed

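The RNA-seq libraries came from an Illumina TruSeq kit according to the labels' protocols. The submitters' processing notes name STAR, HTSeq and DESeq2 and the build mm10; of versions, settings, annotation and strand, nothing is given in the sources used here. The authors deposited 1 signal value per gene and library, a count after division by that library's size factor: 100% of the values were whole multiples (within 0.01) of the smallest value above 0, and reads were recovered from them. Libraries held 18144933 to 21983821 reads.

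The test was limma-trend (limma version 3.58.1 under R 4.3.3) on log2(value + 1) for the 12699 genes that exceeded 10 in 3 or more libraries, with a single genotype term and p-values adjusted over all of them by Benjamini-Hochberg. Fold changes on this scale understate those of low genes. Alternatives were other scalings, filters and pseudocounts, edgeR 4.0.16 and DESeq2 1.42.0 on recovered reads, array weights, a replicate block, the Y-linked share (4 genes) as a covariate, and each library left out. The members, lists and alternatives were chosen with earlier results of these data known. The limma and edgeR fits on genotype alone were also run on simulated counts. The spread of those counts was estimated with the Y-linked share in the model, so it can be narrower than in the data. The other fits were not run on them.

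All members were named; from each list the genes that passed, or the 2 with the highest mean, were to be named, and for each tested member the 2 most alike genes; those of Slc25a11 are not reported here. Me2, Gpd1l, Asns, Adsl, Cad, Ass1, Adss, Ifng, Tbx21, Pcx, Sdhc, Sdhd, Dhodh, Sqor, Mdh2 and Rnf167 were added after their values were seen. Replicate numbers come from the titles. Across genes, the deviations from the group mean correlated between libraries of the same number at 0.579, 0.458 and 0.188, all over 0.1, but for cKO 3 the value with control 2 was higher (0.272). The labels state no pairing. The reported test is unpaired, and the block stands beside it. No label says that separate animals or cultures gave the replicates, and p-values describe only the spread of these 6 libraries; libraries of a group differed in Y-linked reads, so not all are repeats of the same cells. Exon lengths and positions came from GENCODE M21 (GRCm38, the assembly of mm10). Of the listed symbols missing from the table, 5 were found through RefSeq synonyms and 3 were not found.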

Additional observations from a re-analysis of the deposited data

How the results depend on the processing

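Slc25a12, Slc25a13 and Got2 stayed negative in all 18 alternatives (-0.16 to -0.10, -0.74 to -0.29 and -0.32 to -0.07 on the log2 scale), and the 2 carriers also stayed without overlap with upper-quartile and library-total scaling. The count of genes called was 0 on genotype alone and became 826 with the Y-linked share as a covariate (of which 2 were shuttle genes, Slc25a13 and Got2), 2 with DESeq2, 1 with array weights, 1 with the replicate block, and 0 to 1 with a library left out; apart from the covariate, no alternative called a shuttle gene, so the block changed no call of a member. The fit of array weights stopped before its convergence limit. Members near 0 changed sign. Got1 was 0.0056 with TMM, 0.0076 with library totals, 0.034 with upper-quartile scaling, 0.023 with edgeR, 0.017 with DESeq2 and 0.081 with the covariate. Slc25a11 was 0.023 with upper-quartile scaling, 0.015 with edgeR, 0.0091 with DESeq2 and 0.073 with the covariate. Mdh1 was 0.017 with upper-quartile scaling and Gpd2 0.127 with array weights. Leaving out 1 library gave -0.107 to 0.064 for Got1, -0.123 to 0.054 for Slc25a11, -0.086 to 0.035 for Mdh1 and -0.218 to 0.124 for Gpd2; the cause was not tested. Scaling moved the median of all genes by less than 0.1, from -0.01 as deposited to 0.02 with upper-quartile factors. Gpd1, at most 2 reads per library, was below what this depth resolves.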
